A study of Mus musculus with 32 samples.

Results

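The expression of 9 genes of the Nodal signaling pathway, called the members from here on, was followed through a β-catenin dose experiment in mouse embryonic stem cells (ESCs). They are Nodal and Gdf3 (ligands), Furin and Pcsk6 (convertases that cut the ligand precursor), Tdgf1 (the co-receptor Cripto), Lefty1, Lefty2 and Cer1 (secreted antagonists) and Smad7 (an intracellular inhibitor). The genes were chosen by name and matched by mouse symbol to the Ensembl identifiers of the count files, where 30934 genes had a symbol. All 9 had a row in every library, 8 passed the filter on low counts, and Cer1 did not.

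The cells were a line named C1, made from ESCs with both copies of β-catenin deleted and carrying by lentivirus an EF1a-driven rtTA and a TRE3G-driven fusion of a destabilizing domain, mCherry and β-catenin S33Y, a form that escapes degradation. Doxycycline (dox) starts transcription of the fusion and trimethoprim (TMP) stabilizes the protein, so every group shares the knockout and the transgene. Per the study's methods the cells were grown in 2i/L, which holds a GSK3 inhibitor, a MEK inhibitor and LIF, whereas the labels' growth protocol gives serum and LIF. At day 0, C1 cells had received 10 µM TMP alone for 48 h and were sorted as living cells, while C1M and C1H cells had received 100 ng/mL dox with 10 µM TMP for 48 h and were sorted for middle and high mCherry. After 4 days in NDiff227 medium, a serum-free medium without the 2i/L factors, C1T cells (TMP, no dox) served as control. C1MV and C1HV were the middle and high cells with inducers withdrawn, and C1MDT and C1HDT the same cells with dox and TMP kept. Each of the 8 groups had 4 libraries that the labels call biological replicates, all from this line.

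Nodal is a ligand of the TGF-β family that binds activin receptors together with a co-receptor of the Cripto family and acts in the nucleus through SMAD2 and SMAD3 with SMAD4. It is known for keeping the epiblast pluripotent and for patterning mesoderm and endoderm in the early embryo. The pathway induces its own ligand and its own inhibitors, among them the Lefty proteins, which block the ligand and the co-receptor, and SMAD7, which blocks the receptors. These roles are background and not results of the data given here.

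Libraries were made with a 3′ kit and held 1366951 to 3648787 reads on genes (median 2402470). Levels are given as CPM, counts scaled to a common total of reads on genes, after TMM scaling, which corrects for differences in library composition; since each transcript gives reads from its 3′ end only and no length scale was applied, levels were not compared between genes. A count of 3, taken as the floor of detection, equalled 0.822 to 2.19 CPM, a limit of counting error only. Ctnnb1, the gene removed in these cells and carried by the fusion, stood at 7.81 ± 2.62 CPM in C1 (SD, n = 4), 12.2 ± 3.84 CPM in C1M and 41.1 ± 5.7 CPM in C1H, and its reads from the transgene and from what is left of the gene cannot be told apart. At day 4 it was at 9.74 CPM in C1T, 9.16 and 6.21 CPM with inducers withdrawn, and 29.2 and 30.8 CPM with inducers kept. The 10 naive pluripotency markers summed to 8717 to 9292 CPM in C1 and to 1381 to 1750.0 CPM in C1T, and the 6 markers of the early post-implantation epiblast to 167 to 221 and 1854 to 2277 CPM, with no gene of either list at 0 in any group. The 4 general pluripotency markers summed to between 615.6 and 1205 CPM in every library. The primitive and visceral endoderm list summed to 710.6 to 926.2 CPM in C1, 475 to 625 CPM in C1M, 433 to 658 CPM in C1H and 782 to 1418 CPM over the groups of day 4. The sums of the other lists were, for neural ectoderm, 28.9 to 201.8 CPM, mesoderm 1.43 to 16.1 CPM, trophoblast 34.9 to 237.4 CPM and fibroblast 2.88 to 17.3 CPM. Elf5 (trophoblast), Meox1 (mesoderm), Neurog2 (neural) and Afp and Sox7 (endoderm) were at 0 counts in every C1 library.

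In the GRCm38 annotation all 9 members are protein-coding genes. Lefty1 (ENSMUSG00000038793) spans chr1:180935022-180938400 and Lefty2 (ENSMUSG00000066652) chr1:180893108-180899103, both on the plus strand, so they are close neighbours of one family, and reads could be shared between them where their messages are alike. Within the last 500 bases of the coding transcripts, none of 401 windows of 100 bases (the read length) of either gene occurred in a transcript of another gene. Full-length reads that match exactly were therefore separable there. The same held for the other members except Tdgf1, where 6 of 1203 windows (0.499%) also occurred in the pseudogene Tdgf1-ps1. Further from the ends, Lefty1 and Lefty2 share 140 identical coding bases, which end 900 and 1765 bases before the ends of their transcripts.

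The other members lie apart from each other in the genome. Nodal (ENSMUSG00000037171) is at chr10:61417972-61425338 on the plus strand, Gdf3 (ENSMUSG00000030117) at chr6:122605403-122610087 on the minus strand, Tdgf1 (ENSMUSG00000032494) at chr9:110939603-110946158 on the minus strand, Cer1 (ENSMUSG00000038192) at chr4:82881751-82885148 on the minus strand and Smad7 (ENSMUSG00000025880) at chr18:75367529-75395935 on the plus strand. Furin (ENSMUSG00000030530) is at chr7:80388585-80405436 on the minus strand and overlaps the antisense gene Gm44851 near its start. Pcsk6 (ENSMUSG00000030513) is at chr7:65861734-66050386 on the plus strand, and its 3′ part overlaps the coding gene Gm45213 on the same strand, so the Pcsk6 counts are uncertain to the extent that reads there were left unassigned.

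**Figure D1:**
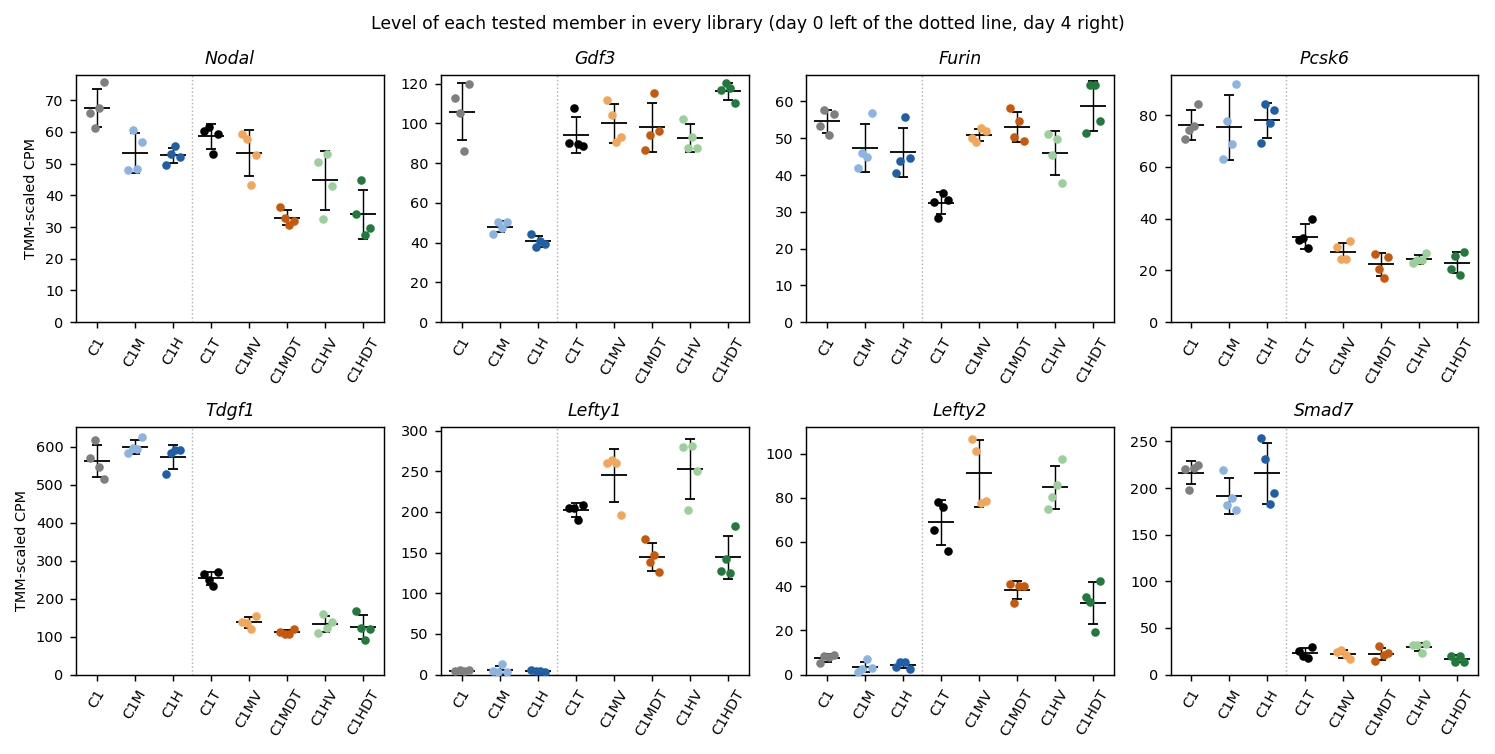
Level of the 8 tested members (TMM-scaled CPM, vertical axis from 0, a scale of its own in each panel) in the 8 groups (horizontal axis), 1 point per library, with the mean and SD of 4 libraries as a black bar. Lefty1 and Lefty2 are near 0 at day 0 and high at day 4, Smad7, Pcsk6 and Tdgf1 show the opposite order, and Gdf3 is low in C1M and C1H alone.

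The plot of levels by library shows 3 kinds of course. Lefty1 and Lefty2 went from a few CPM at day 0 to far higher levels at day 4. Smad7, Pcsk6 and Tdgf1 were high in all 12 libraries of day 0 and lower in all 20 of day 4. Nodal, Gdf3 and Furin followed neither course, and their day 0 and day 4 levels were less far apart than those of the Lefty genes and Smad7.

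At day 0, the cells sorted for the fusion had less Gdf3 and slightly less Nodal message than C1 cells, and no member passed the threshold as higher. This comparison asks what the exogenous β-catenin did under pluripotent conditions. In C1M against C1, 3 of the 8 tested members passed the threshold of 0.05 on the Benjamini-Hochberg adjusted p from edgeR, all 3 lower (Nodal, Gdf3 and Lefty2), where 26.3% of all 15280 tested genes passed, 14.3% higher and 12% lower. In C1H against C1, 2 members passed, both lower (Nodal and Gdf3), against 25.9% of all genes, 13.8% higher and 12.1% lower. The median log2 fold change of the 8 members was -0.19 and -0.21, beside 0.056 and 0.042 over all genes tested. These comparisons share the C1 libraries, and dox exposure, the mCherry gate and the fusion cannot be told apart in them. Libraries without overlap between the groups were found for 25.4% of all tested genes in C1M against C1 and 25.5% in C1H against C1. The naive markers move with these comparisons, 3 higher and 6 lower of 10 in C1M and 1 higher and 4 lower in C1H. So do the epiblast markers (2 higher and 2 lower of 6 in C1M, 1 higher and 2 lower in C1H), the general pluripotency markers (2 of 4 lower in both), the endoderm list (3 higher and 2 lower of the 10 tested in C1M, 1 higher and 2 lower in C1H), whose sum in C1 did not overlap that of C1M or C1H, and the fibroblast list, whose sum was 6.22 to 7.13 CPM in C1, 13.2 to 17.3 CPM in C1M and 13.9 to 15.4 CPM in C1H. The mesoderm sum was 13.4 to 16.1 CPM in C1 and 7.21 to 11.3 CPM in C1M. Their part in the results was not tested.

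Gdf3, a ligand of the same family that can pair with Nodal, gave the clearest difference of day 0. Its level was 113, 105, 86.1 and 119.6 CPM in the 4 C1 libraries, 44.5, 50.4, 47.2 and 50.3 in C1M and 44.6, 38, 40.7 and 39.5 in C1H. Every C1 library stood above every library of the induced cells, with no overlap. The fall was 2.21-fold in C1M (log2 -1.14 ± 0.11, SE, edgeR adjusted p = 1.25e-17) and 2.61-fold in C1H (log2 -1.38 ± 0.11, adjusted p = 9.86e-23). Among the members this was the one day 0 call held without any single library and under each alternative in both comparisons.

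Nodal itself fell by less. Its level was 65.8, 61.1, 67.4 and 75.6 CPM in C1, 47.9, 60.6, 48.2 and 56.9 in C1M and 49.7, 53, 55.7 and 52.1 in C1H. The lowest C1 library was just above the highest library of C1M, and the groups did not overlap. The log2 fold change was -0.34 ± 0.12 in C1M (adjusted p = 0.0278) and -0.36 ± 0.12 in C1H (adjusted p = 0.0179). Neither call was past the threshold when counts were scaled by library size alone (log2 -0.28 in both, adjusted p = 0.0819 and 0.0725), a scaling that moved the median of all genes to 0.119 and 0.12. The C1M call was also lost without C1 replicate 4, C1M replicate 1 or C1M replicate 3 (log2 -0.44 to -0.28 over the libraries left out, adjusted p up to 0.117), and the C1H call without C1 replicate 4 (adjusted p = 0.0824).

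The antagonist messages were close to the floor at day 0. Lefty2 gave 12, 15, 15 and 18 counts in C1, 3, 7, 21 and 7 in C1M and 10, 16, 15 and 6 in C1H. Its log2 fold change was -1.04 ± 0.35 in C1M (adjusted p = 0.0215) and -0.77 ± 0.34 in C1H (adjusted p = 0.0873, past the threshold only without C1 replicate 1). C1M replicate 3 overlapped the C1 libraries. The C1M call was lost in 6 of the 8 fits that left out a library, all but those without C1 replicate 1 or C1M replicate 3 (log2 -1.71 to -0.81, adjusted p up to 0.0824). Lefty1 gave 9, 10, 9 and 11 counts in C1, 9, 7, 38 and 7 in C1M and 16, 12, 11 and 7 in C1H, with a log2 fold change of 0.25 ± 0.48 in C1M (adjusted p = 0.752) that became -0.67 without C1M replicate 3.

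**Figure D2:**
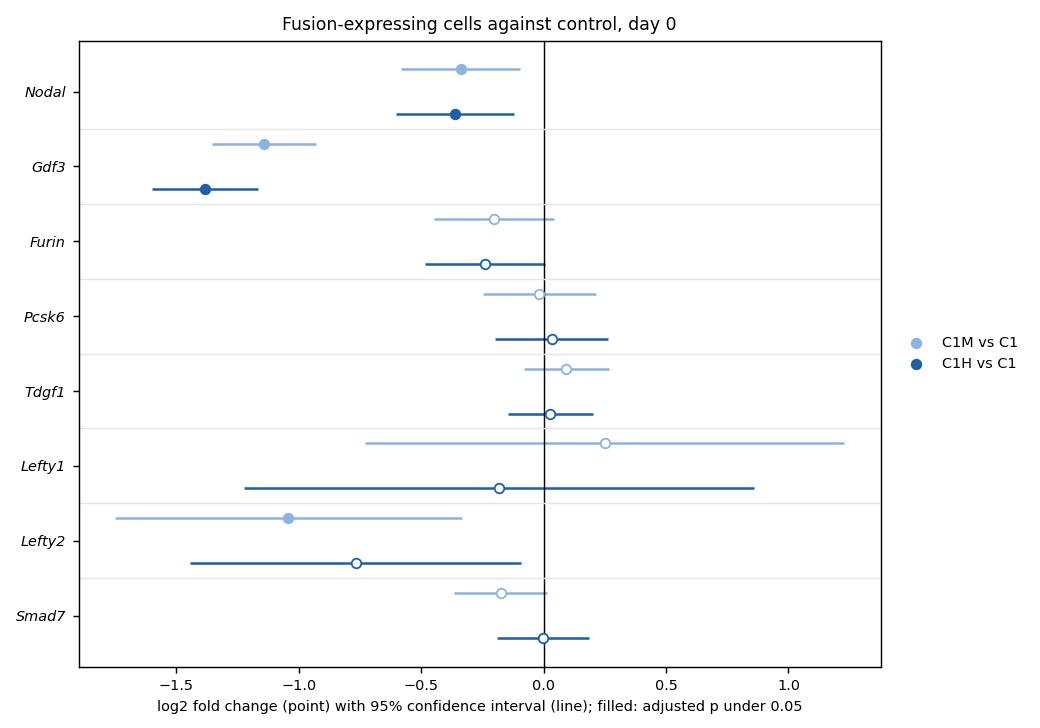
Log2 fold change of the 8 tested members in C1M and C1H against C1 at day 0 (horizontal axis; point, with its 95% confidence interval as a line), filled where the adjusted p is under 0.05. Gdf3 lies near -1.14 and -1.38, Nodal near -0.34 and -0.36, and Lefty2 is filled in C1M only.

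The other members differed by little at day 0, and their intervals limit how large a difference could be. Tdgf1 had a 95% interval of the log2 fold change of -0.079 to 0.27 in C1M and -0.14 to 0.20 in C1H, and Smad7 of -0.37 to 0.016 and -0.19 to 0.19. The 2 convertases gave -0.45 to 0.043 and -0.49 to 0.0037 (Furin) and -0.25 to 0.21 and -0.20 to 0.26 (Pcsk6). Furin passed in C1H only without C1H replicate 3 (log2 -0.37, adjusted p = 0.0304). Between the high and middle cells, C1H against C1M, 0 members passed in edgeR, with 1 (Gdf3, log2 -0.24) at an unadjusted p under 0.05 and 0 in DESeq2, where 1.77% of all genes passed in edgeR.

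From day 0 to day 4 the Lefty1 and Lefty2 messages rose and the co-receptor, Pcsk6 and Smad7 messages fell in every arm. This comparison asks how the cells changed as they left the pluripotent state. The control cells (C1T against C1) had 6 of 8 members past the threshold, 2 higher and 4 lower, where 49.2% of all genes passed, 24.4% higher and 24.9% lower. C1MV against C1M had 3 members higher and 3 lower, where 45.8% of all genes passed, 22% higher and 23.8% lower. C1MDT against C1M had 3 higher and 4 lower, where 52.4% passed, 24.5% higher and 27.9% lower. C1HV against C1H had 3 higher and 3 lower, where 47% passed, 22% higher and 25.1% lower. C1HDT against C1H had all 8 past the threshold, 4 in each direction, where 55.7% passed, 26.3% higher and 29.4% lower. The share of the 8 members past the threshold was above that of all genes in each arm, but the count is small and roughly every second gene of the table passed, so the sizes are given below. Arms of the same origin share their day 0 libraries. Between an arm and its own day 0 group, the libraries did not overlap for 38.8% (C1MV) to 49% (C1HDT) of all tested genes. The naive and epiblast marker lists move with every one of these comparisons, all 10 naive markers lower and 5 of 6 epiblast markers higher in each arm. The endoderm list moves with the arms other than the control, 10 of the 10 tested being higher in C1MV and in C1HV and 8 in C1MDT and in C1HDT, against 1 higher and 1 lower in C1T. The mitochondrial share of reads was 2.05% to 2.66% in the libraries of day 0, 1.59% to 1.82% in C1T and 0.533% to 0.971% in the 16 other libraries of day 4, with no overlap between these 3 sets. The neural sum was higher and the trophoblast and mesoderm sums lower at day 4 than at day 0 in every library. The general pluripotency sum was lower in each arm than in its own day 0 group without overlap, 1145 to 1205 CPM in C1 and 988 to 1132 in C1T. The share of reads in no gene was 9.03% to 11.2% at day 0 and 4.72% to 6.83% at day 4. The part of these values in the members' changes, and in their differences from the control, was not tested. In these bulk libraries, fewer cells with a message and less message per cell cannot be told apart.

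**Figure D3:**
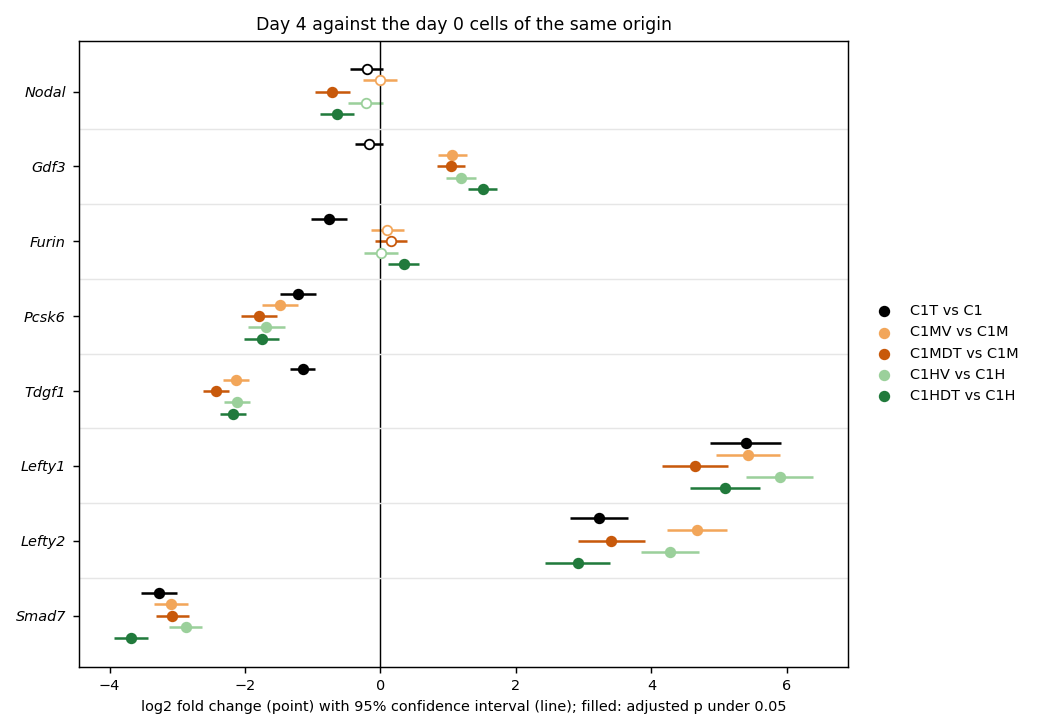
Log2 fold change of the 8 tested members from day 0 to day 4 (horizontal axis; point, with its 95% confidence interval as a line) in the control and in the 4 arms that started from cells sorted for mCherry, filled where the adjusted p is under 0.05. Lefty1 and Lefty2 are far to the right, Smad7 is near -3, and Gdf3 and Furin separate the control from the other arms.

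Lefty1 had the largest increase of the members. Its level was 205, 205, 191 and 209 CPM in C1T, 261, 264, 259.7 and 196 in C1MV and 279, 202, 281 and 250.3 in C1HV. With inducers kept it was 167, 138, 146 and 126 in C1MDT and 128, 142, 125 and 182 in C1HDT. Every one of these 20 libraries was above the highest of day 0, C1M replicate 3 at 12.4 CPM. The increase was 41.9-fold in the control (log2 5.39 ± 0.26, adjusted p = 1.38e-16), and the log2 fold change was 5.43, 4.64, 5.90 and 5.08 in C1MV, C1MDT, C1HV and C1HDT (largest adjusted p of the 4, 8.08e-16). Because the starting level rests on few counts, the C1M arms depend on 1 library, and without C1M replicate 3 their values became 6.36 and 5.59.

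Lefty2 took the same course at a lower multiple. Its level was 65.2, 78.2, 75.8 and 56.1 CPM in C1T, 107, 101, 77.7 and 78.4 in C1MV and 74.9, 80.2, 86 and 97.5 in C1HV. It was 40.9, 32.4, 39.9 and 39.9 in C1MDT and 35, 32.9, 19.3 and 42.2 in C1HDT. All 20 libraries of day 4 were above the highest of day 0, and those with inducers kept were below every other library of day 4. The increase was 9.38-fold in the control (log2 3.23 ± 0.21, adjusted p = 4.10e-22), and the log2 fold change was 4.67, 3.41, 4.28 and 2.91 in C1MV, C1MDT, C1HV and C1HDT. Without C1M replicate 3 the C1M arms gave 5.36 and 4.11. Tested directly, the increase was larger than that of the control in C1MV (by 1.44 ± 0.38 on the log2 scale, adjusted p = 0.00294, and 2.12 without C1M replicate 3) and in C1HV (by 1.05 ± 0.37, adjusted p = 0.031, lost without C1 replicate 2, 3 or 4 or C1H replicate 1 or 4, adjusted p up to 0.0836). The low day 0 counts of C1M and C1H enter these Lefty2 differences. At day 0 Lefty2 stood at log2 -1.04 and -0.77 against C1. At day 4 C1MV and C1HV stood at 0.40 and 0.28 against C1T. The differences are thus not separate evidence from the day 0 comparison. For Lefty1 the tests against the control's increase gave differences of 0.039 ± 0.54 and 0.51 ± 0.53, neither past the threshold (adjusted p = 0.979 and 0.567).

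Cer1, the antagonist Cerberus, known from anterior visceral endoderm, was at or under the floor everywhere. It gave 0 counts in all libraries of C1, C1M, C1H, C1T and C1HV. The counts were 0, 0, 1 and 0 in C1MV, 0, 2, 3 and 1 in C1MDT and 1, 0, 3 and 2 in C1HDT. No library exceeded 3 counts, so Cer1 did not pass the filter on low counts and has no test here; with no filter, C1MDT against C1M and C1HDT against C1H passed the threshold. Genes of the primitive and visceral endoderm list did rise in those cells at day 4, among them Gata6, from 3.79 CPM in C1M to 44.6 in C1MDT, while Afp of the same list was under the floor in every group.

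Smad7, which blocks activated receptors of the TGF-β family, fell the most. Its level was 221, 198, 222 and 225 CPM in C1, 219.8, 182, 189.9 and 177 in C1M and 254, 232, 183 and 195 in C1H. At day 4 it was 24.9, 19.6, 17.6 and 29.4 in C1T, 23.8, 25.9, 21.1 and 16.4 in C1MV and 31.5, 31.8, 23.2 and 32.5 in C1HV. It was 15, 30.2, 20.9 and 23 in C1MDT and 19.7, 13.8, 20.1 and 13.3 in C1HDT, so that no library of day 4 came near those of day 0. The fall was 9.64-fold in the control (log2 -3.27 ± 0.13, adjusted p = 4.30e-43) and log2 -3.10, -3.07, -2.88 and -3.68 in C1MV, C1MDT, C1HV and C1HDT. Its fall in an arm was not shown to differ from that of the control, with differences between -0.41 and 0.39 and adjusted p of 0.133 to 0.598 over the 4 arms, although the C1HV difference passed without C1H replicate 1 or C1T replicate 4.

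Tdgf1, the co-receptor that Nodal needs at the cell surface and a marker of undifferentiated cells, fell further where the fusion had been expressed. Its level was 570.5, 618, 548 and 515 CPM in C1, 585, 597, 593 and 626 in C1M and 528, 584, 591 and 592 in C1H. After 4 days it was 266, 248, 232 and 270.1 in C1T, 139, 136, 121 and 154 in C1MV and 109.5, 159, 123 and 138 in C1HV. It was 112, 108, 107 and 121 in C1MDT and 168, 124, 91.7 and 120.1 in C1HDT. The 4 C1T libraries lay between the day 0 libraries and the 16 others of day 4, with no overlap on either side. The fall was 2.22-fold in the control (log2 -1.15 ± 0.092, adjusted p = 6.09e-17) and 4.35- to 5.37-fold in the other arms. The difference from the control was itself past the threshold in all 4 arms, log2 -0.99 ± 0.13 and -0.97 ± 0.13 in C1MV and C1HV and -1.28 ± 0.13 and -1.03 ± 0.13 in C1MDT and C1HDT (largest adjusted p, 3.83e-08), where 21.9% to 25.2% of all genes passed these tests.

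The convertases took separate courses. Pcsk6 was 70.9, 74.1, 75.7 and 84.2 CPM in C1, 63.2, 77.7, 68.8 and 92 in C1M and 69.1, 84.3, 76.9 and 81.9 in C1H. At day 4 it ranged from 28.6 to 39.8 CPM in C1T and from 17.0 to 31.4 CPM in the 16 other libraries. No library of day 4 overlapped day 0. The fall was 2.32-fold in the control (log2 -1.22 ± 0.14, adjusted p = 1.36e-14) and 2.81- to 3.45-fold elsewhere. It exceeded the fall of the control in C1MDT (by log2 -0.57 ± 0.19, adjusted p = 0.0205) and C1HDT (by -0.54 ± 0.19, adjusted p = 0.0278), but these calls were lost in 5 and 8 of the fits that left out 1 library (adjusted p up to 0.143 and 0.114). The libraries were C1 replicate 1, C1M replicate 4, C1T replicates 2 and 4 and C1MDT replicate 3 for the first, and C1 replicates 1 and 2, C1H replicates 2 and 4, C1T replicates 2 and 4 and C1HDT replicates 1 and 3 for the second.

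Furin, the widely expressed convertase, fell past the threshold in the control and in no other arm. Its level was 53.3, 57.7, 50.8 and 56.5 CPM in C1 and 32.6, 28.3, 35.3 and 33.3 in C1T, with no overlap (log2 -0.76 ± 0.14, adjusted p = 7.05e-07). In the middle cells it was 42, 46.1, 45 and 56.9 at day 0, 50, 49.1, 52.7 and 52 in C1MV and 58.2, 50.5, 54.7 and 49.2 in C1MDT. In the high cells it was 40.5, 43.9, 55.7 and 44.5 at day 0, 51.1, 45.5, 49.9 and 37.7 in C1HV and 51.3, 64.4, 64.5 and 54.8 in C1HDT. The day 4 values of these arms overlapped their own day 0 values, and only C1HDT passed the threshold, higher by log2 0.34 ± 0.12 (adjusted p = 0.0106). The difference from the control was past the threshold in all 4 arms, log2 0.86, 0.92, 0.77 and 1.10 in C1MV, C1MDT, C1HV and C1HDT (largest adjusted p, 8.28e-04).

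Gdf3 and Nodal moved in different ways between the days. At day 4 Gdf3 was 90.2, 108, 89.6 and 88.7 CPM in C1T, 112, 104, 90.5 and 93.4 in C1MV and 102, 87.6, 93.3 and 87.8 in C1HV. It was 86.5, 94.3, 116 and 96.3 in C1MDT and 117, 120.2, 118 and 110.3 in C1HDT. All of these values lay in or near the range of C1 at day 0, and all were above C1M and C1H. The log2 fold change was therefore -0.17 ± 0.10 in the control (adjusted p = 0.165) and 1.06, 1.04, 1.19 and 1.51 in C1MV, C1MDT, C1HV and C1HDT, with differences from the control of 1.21 to 1.68 (largest adjusted p, 8.01e-12). The C1 libraries and the low day 0 values of C1M and C1H enter these differences, so they are not separate evidence from the day 0 comparison.

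Nodal was 60.4, 61.6, 52.9 and 59.4 CPM in C1T, 59.2, 57.7, 43.2 and 52.8 in C1MV and 50.6, 32.4, 52.9 and 42.9 in C1HV at day 4. With inducers kept it was 36.3, 32.8, 30.7 and 32 in C1MDT and 34, 44.8, 27.6 and 29.6 in C1HDT. From day 0 to day 4 it fell in C1MDT (log2 -0.71 ± 0.13, adjusted p = 1.01e-06) and C1HDT (log2 -0.64 ± 0.13, adjusted p = 8.03e-06). In the other arms the 95% interval of the log2 fold change was -0.45 to 0.041 in C1T, -0.25 to 0.24 in C1MV and -0.48 to 0.04 in C1HV. The fall in C1MDT differed from the control by log2 -0.50 ± 0.18 (adjusted p = 0.0286), a call lost in 10 of the 16 fits that left out 1 library, those without C1 replicate 1, 2 or 3, C1M replicate 2 or 4, C1T replicate 1, 2 or 4 or C1MDT replicate 3 or 4 (adjusted p up to 0.105). In C1HDT the difference was -0.44 ± 0.18 (adjusted p = 0.0631), past the threshold with RLE or library size scaling, with the filter at 1 CPM in all libraries, and without C1 replicate 4, C1T replicate 3 or C1HDT replicate 2 (lowest adjusted p, 0.0199).

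Against the control of day 4, the cells with a history of the fusion had more Furin and less Tdgf1, and those that kept the inducers also had less Nodal, Pcsk6, Lefty1 and Lefty2. These comparisons ask how the fusion before or during differentiation altered the outcome, and all 4 share the C1T libraries. In C1MV against C1T, 3 members passed (2 higher, 1 lower), where 30.2% of all genes passed, 15.4% higher and 14.9% lower. In C1MDT it was 6 (1 higher, 5 lower), where 33.4% passed, 16.9% higher and 16.5% lower. In C1HV it was 4 (1 higher, 3 lower), where 28% passed, 13.7% higher and 14.3% lower. In C1HDT it was 7 (2 higher, 5 lower), where 33.5% passed, 17.4% higher and 16.1% lower. TMP was the same in C1T, C1MDT and C1HDT and was absent during differentiation in C1MV and C1HV. Dox exposure, the mCherry gate and the fusion cannot be told apart in any of the 4 comparisons, nor TMP from them in C1MV and C1HV. The 11 markers of primitive and visceral endoderm move with these comparisons, 8 of the 10 tested being higher in each of the 4 groups and the sum of all 11 782 to 1308 CPM in C1T, 1125 to 1349 and 1099 to 1332 in the withdrawn groups C1MV and C1HV, and 1207 to 1379 and 1178 to 1418 in C1MDT and C1HDT. Ttr and Apoa1 make up most of that sum in C1T and were lower in C1MDT and C1HDT. Naive markers were higher in the withdrawn groups (8 of 10 in C1MV and in C1HV) and in the kept groups 5 were lower and 1 higher in C1MDT and 4 lower and 1 higher in C1HDT, where the naive sums overlapped C1T. Of the 6 epiblast markers 3 to 5 were lower in each of the 4 groups, and of the 4 general pluripotency markers 3 were lower in C1MDT and C1HDT and 2 in C1MV and C1HV, where 1 was higher in C1HV. The neural sum was 114.8 to 140.0 CPM in C1T, 192 to 202 CPM in C1MDT and 156 to 191 CPM in C1HDT. The trophoblast sum was 45.7 to 58.1 CPM in C1T, 77.7 to 108 CPM in C1MV and 78.5 to 91.2 CPM in C1HV, and the fibroblast sum 2.88 to 7.62 CPM in C1T and 8.26 to 14.2 CPM in C1HV. The neural, trophoblast and fibroblast ranges named here did not overlap C1T, whereas the endoderm sums did in all 4 groups. In C1MV the fibroblast sum, 7.13 to 12.7 CPM, overlapped C1T. The mitochondrial share given above also separates C1T from the 4 groups. The part of these values in the results was not tested.

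**Figure D4:**
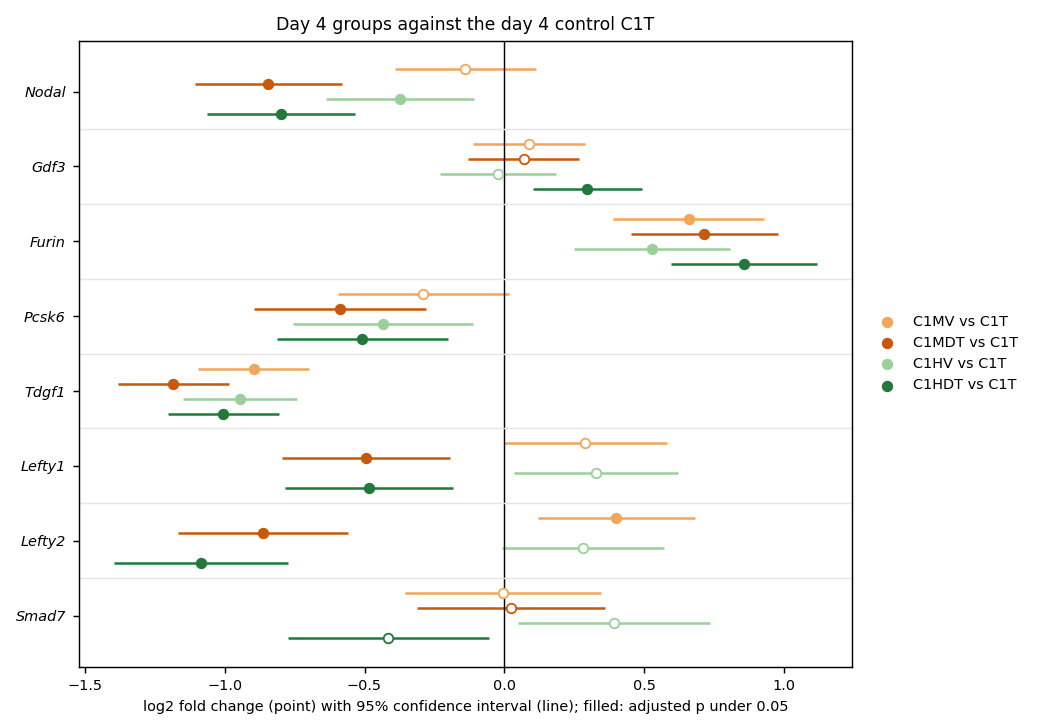
Log2 fold change of the 8 tested members in the 4 other groups of day 4 against the control C1T (horizontal axis; point, with its 95% confidence interval as a line), filled where the adjusted p is under 0.05. Furin is right of 0 and Tdgf1 left of 0 in all 4 groups, while Lefty1 and Lefty2 are left of 0 only in C1MDT and C1HDT.

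Furin was higher than in C1T by 1.58-fold in C1MV (log2 0.66 ± 0.14, adjusted p = 3.13e-05), 1.64-fold in C1MDT, 1.44-fold in C1HV (adjusted p = 0.00178, the largest of the 4) and 1.81-fold in C1HDT. Tdgf1 was lower by 1.86-fold in C1MV, 2.27-fold in C1MDT (log2 -1.18 ± 0.1, adjusted p = 2.00e-15), 1.93-fold in C1HV and 2.01-fold in C1HDT. In neither gene did a library of these groups overlap C1T.

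The Lefty genes split the groups by whether the inducers were kept. Lefty1 was lower than in C1T by log2 -0.49 ± 0.15 in C1MDT (adjusted p = 0.00931) and -0.48 ± 0.15 in C1HDT (adjusted p = 0.0107). Lefty2 was lower by -0.86 ± 0.15 (adjusted p = 3.68e-06) and -1.08 ± 0.16 (adjusted p = 2.73e-08). With inducers withdrawn the fold changes had the other sign, 0.29 ± 0.14 and 0.33 ± 0.14 for Lefty1 (adjusted p = 0.135 and 0.093) and 0.40 ± 0.14 and 0.28 ± 0.14 for Lefty2. Of these 4, Lefty2 in C1MV passed (adjusted p = 0.0226) but not without C1T replicate 1 or 4 or C1MV replicate 1 or 2 (log2 0.32 to 0.49, adjusted p up to 0.107). Lefty1 passed in C1MV without C1MV replicate 4 (adjusted p = 0.0379), in C1HV without C1HV replicate 2 (adjusted p = 0.0212), and in both with only the groups compared in the fit or with no filter on low counts. In C1HV, Lefty1 also passed with library size scaling (adjusted p = 0.0332) and Lefty2 with only the groups compared (adjusted p = 0.0426).

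Nodal was lower than in C1T by log2 -0.84 ± 0.13 in C1MDT (adjusted p = 4.46e-08) and -0.80 ± 0.13 in C1HDT (adjusted p = 2.05e-07). In C1HV the value was -0.37 ± 0.13 (adjusted p = 0.0245), a call lost with library size scaling and without C1T replicate 1, 2 or 4 or C1HV replicate 2 or 4 (adjusted p up to 0.228). Pcsk6 was lower by -0.59 ± 0.16 in C1MDT (adjusted p = 0.00132), -0.51 ± 0.16 in C1HDT (adjusted p = 0.00591) and -0.43 ± 0.16 in C1HV (adjusted p = 0.0332). The last of these was lost with library size scaling, with no filter on low counts, and without C1T replicate 1, 2 or 4 or C1HV replicate 1, 2 or 3 (adjusted p up to 0.158). Gdf3 was higher in C1HDT by 0.30 ± 0.099 (adjusted p = 0.0126), a call lost without C1T replicate 1 or 3 (adjusted p up to 0.0564). Smad7 did not pass in any of the 4 comparisons, with intervals of -0.35 to 0.35 in C1MV and 0.047 to 0.73 in C1HV, and of -0.31 to 0.36 in C1MDT and -0.77 to -0.056 in C1HDT, though it did in C1HV with library size scaling and without C1T replicate 4 or C1HV replicate 3, and in C1HDT in DESeq2 and without C1T replicate 3 or C1HDT replicate 1 or 3.

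With inducers kept through differentiation, Nodal and both Lefty genes were lower than with inducers withdrawn, in the middle and in the high cells. This comparison asks what the continued presence of the fusion changed. It uses cells of one sort on both sides, so the gate is shared, but dox and TMP themselves differ together with the fusion and cannot be told apart from it. In C1MDT against C1MV, 3 of 8 members passed, all 3 lower (Nodal, Lefty1 and Lefty2), where 12.6% of all genes passed, 6.64% higher and 5.98% lower. In C1HDT against C1HV, 5 passed, 1 higher (Gdf3) and 4 lower (Nodal, Lefty1, Lefty2 and Smad7), where 15.9% of all genes passed, 9.06% higher and 6.89% lower. The median log2 fold change of the 8 members was -0.29 and -0.25, beside -0.018 and 0 over all genes tested. The naive markers move with these comparisons too, 9 of 10 and 10 of 10 being lower with inducers kept (sums of 1548 to 1863 CPM in C1MDT and 2868 to 3443 in C1MV, 1545 to 1805 in C1HDT and 2790.0 to 2956 in C1HV), while 4 of 6 epiblast markers were higher. Of the 10 tested endoderm markers 4 were higher and 1 lower in the middle cells and 4 higher in the high cells. The general pluripotency sum was 616 to 700 CPM in C1MDT and 731 to 960 in C1MV. It was 620.5 to 702 CPM in C1HDT and 792 to 950 in C1HV. The share of reads in no gene was lower with inducers kept in both gates, without overlap. In the high cells the mitochondrial share was 0.621% to 0.735% in C1HDT and 0.823% to 0.948% in C1HV. The neural sum was 102 to 121 CPM in C1MV and 103 to 128 CPM in C1HV, below the kept groups without overlap, and the trophoblast sum was 34.9 to 50.7 CPM in C1MDT and 39.4 to 46.3 CPM in C1HDT, below the withdrawn groups without overlap. The part of these values in the results was not tested.

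**Figure D5:**
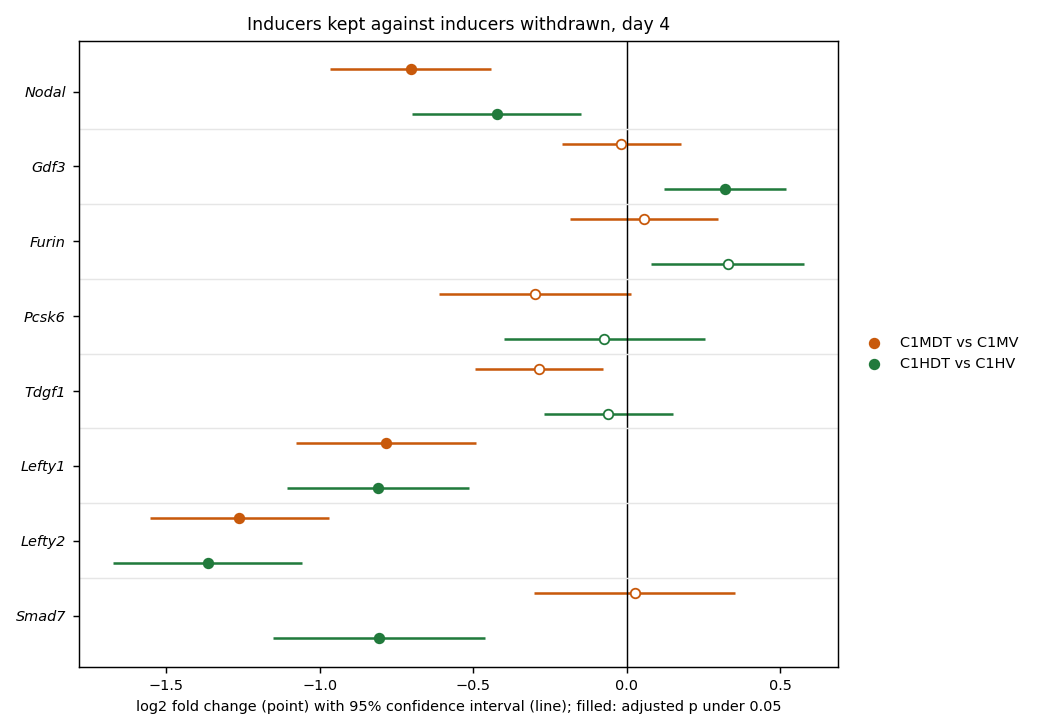
Log2 fold change of the 8 tested members at day 4 with inducers kept against inducers withdrawn (horizontal axis; point, with its 95% confidence interval as a line) in middle and high cells, filled where the adjusted p is under 0.05. Nodal, Lefty1 and Lefty2 are left of 0 in both, and Gdf3 and Smad7 are filled in the high cells only.

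Lefty2 gave the largest difference, 2.4-fold lower in C1MDT (log2 -1.26 ± 0.15, adjusted p = 2.97e-10) and 2.58-fold lower in C1HDT (log2 -1.36 ± 0.15, adjusted p = 1.11e-10). Lefty1 was 1.72-fold lower (log2 -0.78 ± 0.14, adjusted p = 2.78e-04) and 1.75-fold lower (log2 -0.81 ± 0.14, adjusted p = 1.56e-04). In both genes and both gates no library with inducers kept reached the lowest library with inducers withdrawn, and the calls held without any single library. Libraries without overlap were found for 14.6% of all tested genes in C1MDT against C1MV and 17.2% in C1HDT against C1HV.

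Nodal was lower by log2 -0.70 ± 0.13 in C1MDT (adjusted p = 1.90e-05), with no overlap, and by -0.42 ± 0.14 in C1HDT (adjusted p = 0.0235), where C1HDT replicates 1 and 2 lay within the C1HV range. The second call was lost without C1HV replicate 1 or 3 or C1HDT replicate 3 or 4 (adjusted p up to 0.138). Gdf3 in C1HDT was higher by 0.32 ± 0.10 (adjusted p = 0.0158), lost without C1HV replicate 2, 3 or 4 or C1HDT replicate 2 or 3 (adjusted p up to 0.0669). Smad7 in C1HDT was 1.75-fold lower (log2 -0.81 ± 0.17, adjusted p = 2.38e-04), a call that held without any single library.

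Tdgf1 in C1MDT, at -0.29 (adjusted p = 0.0579), and Furin in C1HDT, at 0.33 (adjusted p = 0.0579), were just outside the threshold although their libraries did not overlap. The first passed in DESeq2, with no filter on low counts, with only the groups compared, with a term for the replicate number, and without C1MV replicate 3 (adjusted p = 0.0241), and the second without C1HDT replicate 1 (adjusted p = 0.0359). Pcsk6 had intervals of -0.61 to 0.013 and -0.40 to 0.26.

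No member passed the threshold between middle and high cells at day 4. These names stand for the gate of day 0. Ctnnb1 itself did not pass between the groups at day 4, with 95% intervals of the log2 fold change of -0.27 to 0.38 in C1HDT against C1MDT and -1.04 to 0.10 in C1HV against C1MV, so a difference in the level of the fusion message was not shown at day 4. In C1HV against C1MV 0 members passed in edgeR and in DESeq2 with 1 (Smad7, log2 0.39 ± 0.17) at an unadjusted p under 0.05, where 0.00654% of all genes passed in edgeR. In C1HDT against C1MDT 0 members passed in either tool with 2 (Gdf3, 0.23 ± 0.096, and Smad7, -0.44 ± 0.17) at an unadjusted p under 0.05, where 0% of all genes passed in edgeR. The test of whether the difference between kept and withdrawn inducers was unequal in cells of the middle and high gates gave 0 members in edgeR, where 0% of all genes passed, and 0 in DESeq2, with 2 at an unadjusted p under 0.05 (Gdf3, 0.34, and Smad7, -0.83). For Lefty2 the interval of that difference was -0.53 to 0.32 on the log2 scale, and for Nodal -0.10 to 0.66.

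Over the 8 group means of log2 CPM, the members fell into a few shared patterns, given as a description of 8 points that share libraries and day. Lefty1 and Lefty2 had a Pearson r of 0.974, Pcsk6 and Tdgf1 0.989 and Pcsk6 and Smad7 0.974, while Lefty1 and Smad7 had -0.974. Nodal had no r above 0.733 with another member, and Furin none above 0.227. Among 9294 tested genes of sufficient level, those most like Nodal were Cpne5 (r = 0.986), Gatad2b (0.967) and Eps15l1 (0.959), and those most like Gdf3 were Aldoa (0.988), Ska2 (0.982) and AI837181 (0.98). Furin was most like Atraid (0.979), Rcan1 and Gstm4, Tdgf1 most like Fnbp1 (0.994), March2 and Tdh, and Pcsk6 most like Zbtb7a (0.998), Ticrr and Hsp90aa1. Lefty1 came closest to Mcf2l (0.998), Klf6 and Vezf1 and Smad7 to Brca2 (0.998), Zrsr1 and Usp48.

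Of 38 other genes of the pathway, listed by role, 35 were tested (Gdf1, Acvr1c and Foxh1, the DNA-binding partner of the SMADs, were too low). At day 0, 7 of the 35 passed in C1M against C1 (2 higher, 5 lower) and 8 in C1H (4 higher, 4 lower), beside 26.3% and 25.9% of all genes. From day 0 to day 4, 19 passed in the control (8 higher, 11 lower; 49.2% of all genes), and 20 to 27 in the other arms (45.8% to 55.7%). Against C1T, 11 to 15 passed in each group (28% to 33.5% of all genes). With inducers kept against withdrawn 3 passed in the middle cells and 3 in the high cells, all higher, beside 12.6% and 15.9% of all genes. The list was drawn up with earlier results known.

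Among the ligands and receptors, Inhbb, the activin B subunit, fell from 60.9 CPM in C1 to 17.1 in C1T (log2 -1.82 ± 0.19, adjusted p = 1.75e-13) and from 45.4 in C1M to 3.03 in C1MDT. Acvr2b, a type II receptor, rose from day 0 to day 4 in all 5 arms, by log2 0.56 in the control and 1.29 in C1HDT. Acvr1b, a type I receptor, was higher than in the matching control in both groups of day 0 (log2 1.07 and 0.83) and in all 4 groups of day 4 (log2 0.71 to 1.12). It stood at 5.74 CPM in C1T and 12.9 CPM in C1MV.

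Of the mediators, Smad3 was higher than in C1T in all 4 groups, from 13.3 CPM in C1T to 35.6 in C1HDT (log2 1.39 ± 0.18, adjusted p = 7.27e-11). Smad4 rose from day 0 to day 4 in all 5 arms (log2 0.62 to 0.84). Drap1, a corepressor that restrains Nodal signaling, was higher than in C1T in all 4 groups (log2 0.33 to 0.56). Skil, a repressor of SMAD targets, was the reverse, at 103 CPM in C1T and 61.5 to 64.7 CPM in the other groups of day 4 (log2 -0.74 to -0.66). Pmepa1, which binds SMADs and is itself a target of the pathway, fell from 271 CPM in C1 to 72.7 in C1T (log2 -1.90 ± 0.094) and in the other 4 arms as well, as Smad7 did. Fst, the activin antagonist follistatin, fell in all 5 arms, from 11.7 to 4.97 CPM in the control.

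The transcription factors induced by Nodal in the embryo did not move together. Lhx1, under the floor in C1, rose in all 5 arms. In C1T it reached only 1.67 CPM, from 2 to 6 counts a library. In C1M and C1H it gave 0 to 4 and 0 to 8 counts a library, so these changes start from few counts. Gsc fell from 9.54 CPM in C1 to a level under the floor in C1T and Eomes from 40.5 to 18.7, both in all 5 arms. Foxa2 and Sox17, which also mark endoderm, were at 2 CPM and under the floor in C1T and at 33 and 20.4 CPM in C1MDT, and were higher than in C1T in all 4 groups. With inducers kept against withdrawn, Lhx1 and Foxa2 were higher in the middle cells (log2 1.38 and 0.65) and Sox17 in the high cells (log2 0.84), the direction opposite to that of Nodal and the Lefty genes.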

How the data were processed

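Expression was measured in 32 libraries of the C1 line, 4 in each of 8 groups set by the labels, made from 100 ng of RNA with a QuantSeq 3′ kit and read as single reads of 100 bases. The authors trimmed with bbduk and aligned with STAR (genome mm10), and reads that aligned once were then assigned to Ensembl genes by htseq-count. The strand used in counting is not given in the sources used here. The deposited values are raw counts per gene. Their 5 rows that name no gene were left out of library sizes. Of all entries of a library, 49.4% to 56.4% had no unique alignment and 4.72% to 11.2% lay in no gene.

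A gene was tested if 4 or more libraries reached 1 CPM (15280 of 31053 genes). Counts were scaled by TMM and fitted over all 8 groups with the robust quasi-likelihood test of edgeR 4.0.16 (limma 3.58.1, R 4.3.3), with Benjamini-Hochberg adjustment over all genes of a comparison and a threshold of 0.05. SDs are over 4 libraries, and folds are 2 to the power of the log2 fold change. Standard errors were derived from the test, as the absolute log2 fold change divided by the square root of its F statistic. The 95% intervals add and subtract this standard error times a quantile of the t distribution. The code was tested on simulated data. Alternatives were RLE and library size scaling, DESeq2 1.42.0, 2 other filters, the replicate number as a block, a fit of the compared groups alone, and omission of each library in turn. Positions and the search for shared reads used the GENCODE M21 annotation and transcripts of GRCm38, the sequence of mm10. Some items are not reported here. The members and lists were chosen with earlier results of these data known. Genes named outside the members are those of the pathway and marker lists and, for likeness, the 3 of highest Pearson r per member among genes averaging 3 or more in log2 CPM. The labels call the libraries biological replicates without saying what was separate, so p-values measure the spread between these libraries. No 2 libraries of a group agreed within sampling noise (chi-square per degree of freedom 1.55 to 4.63).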

Additional observations from a re-analysis of the deposited data

Results flagged for a closer look

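In 7 of the 64 sets of 4 libraries (8 members by 8 groups), 1 library stood apart from the other 3 by Dixon's criterion, and chance alone gives about 1 in 20. The values were 108 CPM of Gdf3 in C1T replicate 2, 528 CPM of Tdgf1 in C1H replicate 1, 12.4 CPM of Lefty1 in C1M replicate 3, 196 CPM of Lefty1 in C1MV replicate 4, 32.4 CPM of Lefty2 in C1MDT replicate 2, 198 CPM of Smad7 in C1 replicate 2 and 23.2 CPM of Smad7 in C1HV replicate 3. C1M replicate 3 had 38 Lefty1 counts against 7 to 9 in the other libraries of its group and also the most Lefty2.

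The change from day 0 to day 4 differed from that of the control, tested as an interaction in edgeR, for 17 pairs of member and arm, of 8 members in 4 arms, where 21.9% to 25.2% of all genes passed in an arm. On the log2 scale, Gdf3 differed by 1.23 and 1.36 in the withdrawn arms C1MV and C1HV and by 1.21 and 1.68 in the kept arms C1MDT and C1HDT. In the same order, Furin differed by 0.86, 0.768, 0.916 and 1.10, and Tdgf1 by -0.99, -0.973, -1.28 and -1.03. Lefty2 differed by 1.44 in C1MV and 1.05 in C1HV, Pcsk6 by -0.571 in C1MDT and -0.54 in C1HDT, and Nodal by -0.504 in C1MDT. All these tests share the C1 and C1T libraries. For Gdf3 and Lefty2 they also take in the day 0 differences of C1M and C1H from C1.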

How the results depend on the processing

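No fold change of a called member reversed under any alternative. Of the values under another scaling, filter, tool, model or block, 1149 stayed on their side of the threshold, 5 called values were no longer past it and 15 came past it. With 1 library left out these numbers were 1584, 64 and 16. Among values that were not past the threshold, some changed sign, Lefty1 in C1M against C1 among them. Scaled by library size alone, 1 member (Gdf3) passed in C1H against C1, where 4111 of 15280 genes passed. In C1HV against C1T that scaling removed the calls of Nodal and Pcsk6, both lower. It added Lefty1 and Smad7, both higher. With each library left out in turn, members called ranged from 1 to 3 in C1M against C1, 1 to 3 in C1H against C1, 2 to 4 in C1HV against C1T, 3 to 6 in C1HDT against C1HV and 3 to 5 in the test of C1MDT against the control's change. With no filter Cer1 passed in C1MDT against C1M and C1HDT against C1H, giving 8 and 9 members, from counts of at most 3 a library. In that setting 7826 and 8436 of 21674 genes passed. Library size scaling moved the share of higher calls over all genes from 54.4% to 64.5% in C1M against C1, 53.4% to 66.4% in C1H against C1, 49.1% to 59.4% in C1HV against C1T and 56.8% to 45.2% in C1HDT against C1HV. Replicate numbers did not pair libraries (mean r of deviations -0.0016 for the same number and 0.00054 for others, 7 of 32 libraries correlating best with their own number). With the replicate block, 4 members passed in C1MDT against C1MV in place of 3, and the count in each other comparison was as without it. Depth limits Cer1 and the day 0 levels of Lefty1 and Lefty2, which rest on 3 to 38 counts a library. Over all genes, DESeq2 called 20 in the comparison of kept against withdrawn between gates, where edgeR called 0 and, with no filter, 11. With only the groups compared, 601 genes in place of 271 passed in C1H against C1M, 0 in place of 1 in C1HV against C1MV (3 with no filter) and 1 in place of 0 in C1HDT against C1MDT. The causes of these changes were not tested.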
